A study of Drosophila melanogaster with 56 samples.

Results

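The comparison set the 48 h change of each transcript in the Drosophila antenna against its 48 h change in the palp-proboscis sample, which held the maxillary palps together with the proboscis. The quantity is a difference of differences: the 48 h minus 0 h change in antenna, minus the 48 h minus 0 h change in palp-proboscis, in log2 signal. A positive value means that the change in antenna was higher, and a negative value that it was lower. All 18769 probe sets other than array controls were members, and the arrays titled antenna or palp-proboscis at 48 h or 0 h numbered 18 of 56 in the series. They were 5 antenna arrays at 48 h, 4 antenna arrays at 0 h, 4 palp-proboscis arrays at 48 h and 5 palp-proboscis arrays at 0 h. The 48 h flies are labelled as fasting and the 0 h flies as baseline, all *Drosophila melanogaster*, and each array came from 1 of 6 numbered pools of flies. The labels give neither sex, age, strain nor genotype. No fed flies were sampled at 48 h, so fasting cannot be told apart from age or elapsed time.

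The antenna is the main olfactory organ of the fly. The maxillary palp carries a small second set of olfactory neurons, and the proboscis carries taste neurons, muscle and the pharynx. Neurons in both appendages sit among support cells, cuticle and hemolymph. During fasting, low insulin signalling, adipokinetic hormone and the transcription factor Foxo shift fly tissues from storing fuel to releasing it, and the sensitivity of olfactory and taste neurons to food cues is known to change.

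Olfactory receptor genes separated the 2 parts more clearly than taste receptor genes did. All 8 antennal marker genes measured were at a log2 signal of at least 4 on every antenna array, and 5 of them (*Or22a*, *Or47b*, *Or67d*, *Ir84a* and *Ir64a*) were below 4 on every palp-proboscis array. All 7 odorant receptor genes of the maxillary palp were at least 4 on every palp-proboscis array, against 1 of 7 (*Or46a*) on every antenna array. Of 5 taste receptor genes of the proboscis, *Gr5a* and *Gr64a* were below 4 on every palp-proboscis array at 0 h. Pool 5 stood apart at 0 h: the mean of 4 gut enzyme genes was 12.6 in its antenna array and 12.5 in its palp-proboscis array, against 3.32 to 7.20 on the other 16 arrays. Accessory gland genes (mean of 4) read 5.23 in palp-proboscis 0 h replicate 1 and 4.95 in antenna 0 h replicate 2, against 2.10 to 2.41 elsewhere. Photoreceptor genes (mean of 2) read 10.7 to 12.9 in antenna at 48 h, against 11.7 to 12.3 at 0 h. In palp-proboscis they read 12.0 to 12.4 at 48 h, against 10.5 to 12.7 at 0 h. What part these 2 sets had in the differences was not tested. The mean of 4 fat body genes was lower at 48 h in both parts. It was 7.09 to 8.08 in antenna at 48 h, against 10.6 to 11.6 at 0 h, and 8.29 to 9.89 in palp-proboscis at 48 h, against 12.2 to 12.9 at 0 h. The mean of 4 hemocyte genes was 6.30 to 7.35 in antenna at 48 h, against 7.93 to 8.72 at 0 h, and 8.53 to 8.77 in palp-proboscis at 48 h, against 9.60 to 10.3 at 0 h.

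Where the fasting response differed between the 2 parts, palp-proboscis had more often changed than antenna. Of 10058 probe sets that reached a log2 signal of 4 on at least 4 of the 18 arrays, 576 (5.73%) had a change in antenna that differed from the change in palp-proboscis at an adjusted p of 0.05, the threshold for every call below. The difference was positive for 264 (2.62%) and negative for 312 (3.1%), and it was at least 2-fold for 145 of the positive and 178 of the negative ones. The 576 belonged to 514 named genes, with a median absolute difference of 1.14. With 1 probe set per named gene, 502 of 8163 genes were called (6.15%). Within antenna alone, 1542 probe sets changed (15.3%), of which 722 rose and 820 fell. Within palp-proboscis alone 3176 changed (31.6%), of which 1663 rose and 1513 fell. Over all 10058 probe sets the 2 changes had a Pearson correlation of 0.57, given as a description, since probe sets share arrays and pools.

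The called differences fell into a few patterns. The most common were 182 probe sets that rose in palp-proboscis with no call in antenna, and 167 that fell in palp-proboscis with no call in antenna. In antenna 41 rose and 55 fell with no call in palp-proboscis. A further 101 moved the same way in both parts to a different extent: 43 rose more in palp-proboscis and 9 more in antenna, while 18 fell more in antenna and 31 more in palp-proboscis. In 27 probe sets the changes were both called and had opposite signs, and in 3 neither change was called on its own. The absolute change was larger in antenna for 136 of the 576 and larger in palp-proboscis for 440. A missing call in 1 part does not show that the transcript stayed level there.

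**Figure D1:**
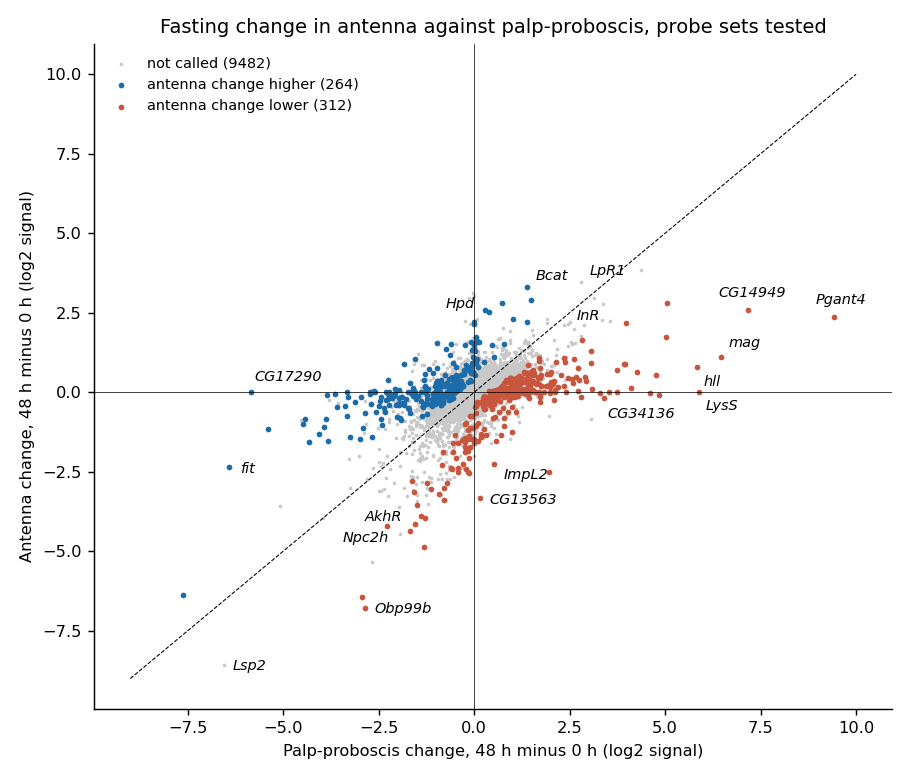
Change from 0 h to 48 h in antenna (vertical axis, log2 signal) against the change in palp-proboscis (horizontal axis, log2 signal) for the 10058 probe sets tested. Blue points are the 264 called differences with a higher antenna change, red points the 312 with a lower one, grey points the rest, and the dashed line marks equal changes; many called points lie close to the horizontal line of no change in antenna.

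A part was counted as at the signal floor where its log2 signal was below 4 on every 48 h and 0 h array. The change of that part then lies below the floor, but it still enters the difference, as with 0.78 in antenna for *hll*. Among the 18769 probe sets, 8016 were at the floor in both parts, 606 in antenna only, 644 in palp-proboscis only and 9503 in neither. Of the 576 calls, 468 had neither part at the floor, 90 had antenna at the floor and 18 had palp-proboscis at the floor. The 90 were 28.7% of 314 probe sets tested with antenna at the floor, the 18 were 4.85% of 371 tested with palp-proboscis at the floor, and the 468 were 4.99% of 9373 tested with neither. The 314 and the 371 passed the signal filter through 1 part only, some of them through 1 time of that part, so these shares are not comparable and nothing is read from them.

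*Pgant4*, which rose in both parts and far more in palp-proboscis, had the largest absolute difference of the named genes. *Pgant4* encodes a polypeptide N-acetylgalactosaminyltransferase, an enzyme that starts mucin-type O-glycosylation of secreted proteins. Its log2 signal was 8.03, 7.86, 6.94, 6.97 and 6.88 in antenna at 48 h, against 5.22, 4.95, 5.70 and 3.96 at 0 h. The palp-proboscis arrays read 13.08, 12.57, 12.01 and 12.43 at 48 h, against 3.31, 2.72, 3.04, 3.47 and 3.00 at 0 h. It rose in both parts without overlap between times, by 2.37 ± 0.33 in antenna (SE) and 9.41 ± 0.33 in palp-proboscis, which is at least 368-fold with the 0 h arrays counted at 4. The difference of the changes was -7.04 ± 0.46 (adjusted p 6.18e-08). In the 4 pools that gave both parts at 48 h, antenna lay 5.04 to 5.63 log2 units below palp-proboscis, while in the 4 pools that gave both at 0 h it lay 0.96 to 2.23 above.

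*mag*, *hll* and *Mdr50* were further genes that rose in palp-proboscis with a smaller change in antenna. *mag* encodes Magro, a lipase and cholesterol ester hydrolase known from the gut. It read 3.85, 3.29, 5.00, 3.81 and 2.63 in antenna at 48 h, against 2.08, 3.00, 2.08 and 3.31 at 0 h, which overlap and exceed 4 on 1 array only. In palp-proboscis at 48 h the arrays read 9.42, 9.46, 9.24 and 8.33, against 2.97, 2.85, 2.08, 2.08 and 3.29 at 0 h. The antenna change of 1.10 ± 0.42 was not called, *mag* rose in palp-proboscis at least 34.6-fold, and the difference was -5.36 ± 0.59 (adjusted p 2.43e-05). *hll*, an acyl-CoA synthetase gene, was below 4 on every antenna array at 0 h and 48 h, with a rise of 0.78 below that level. At 24 h, however, *hll* was above 4 on every antenna array, with 7.50, 5.78, 4.72, 5.73 and 5.71. Palp-proboscis read 10.10 to 10.62 at 24 h. From 0 h to 48 h *hll* rose at least 36.0-fold in palp-proboscis, to between 9.04 and 9.34 against 2.88 to 3.95. The 48 h difference was -5.04 ± 0.23 (adjusted p 1.75e-09). *Mdr50*, an ABC transporter gene, had a change of 0.53 ± 0.36 in antenna (not called), rose at least 15.7-fold in palp-proboscis, and differed by -4.24 ± 0.51. It was dim in antenna, with 2.63 to 4.02 at 48 h against 2.08 to 4.07 at 0 h, so its difference rests mainly on the palp-proboscis change.

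The 10 lowest differences with neither part at the floor included the following genes as well. *CG14949* rose in both parts without overlap between times, at least 2.41-fold in antenna and at least 61.9-fold in palp-proboscis (difference -4.57 ± 0.42). *Ag5r*, of the antigen 5-related secreted proteins, rose at least 11.3-fold in palp-proboscis, with a change of -0.07 ± 0.65 in antenna. Its antenna arrays were uneven, with 5.65 on replicate 5 at 48 h and 5.08 on replicate 3 at 0 h, and all others at or below 2.55. *CG34136* differed from these in level: it read 11.78 to 11.90 in antenna at 48 h, against 11.89 to 12.11 at 0 h, and 11.44 to 12.21 in palp-proboscis at 48 h, against 8.03 to 8.75 at 0 h. Its level in palp-proboscis had thus reached the antennal range at 48 h, and the difference was -3.59 ± 0.22. *spri*, a Ras and Rab5 regulator gene, differed by -3.64 ± 0.34, although a second probe set of *spri* gave -0.81 ± 0.47 and was not called. *CG7763* (-3.30 ± 0.63) and *CG8679* (-3.05 ± 0.27) rose in both parts, more in palp-proboscis.

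**Figure D2:**
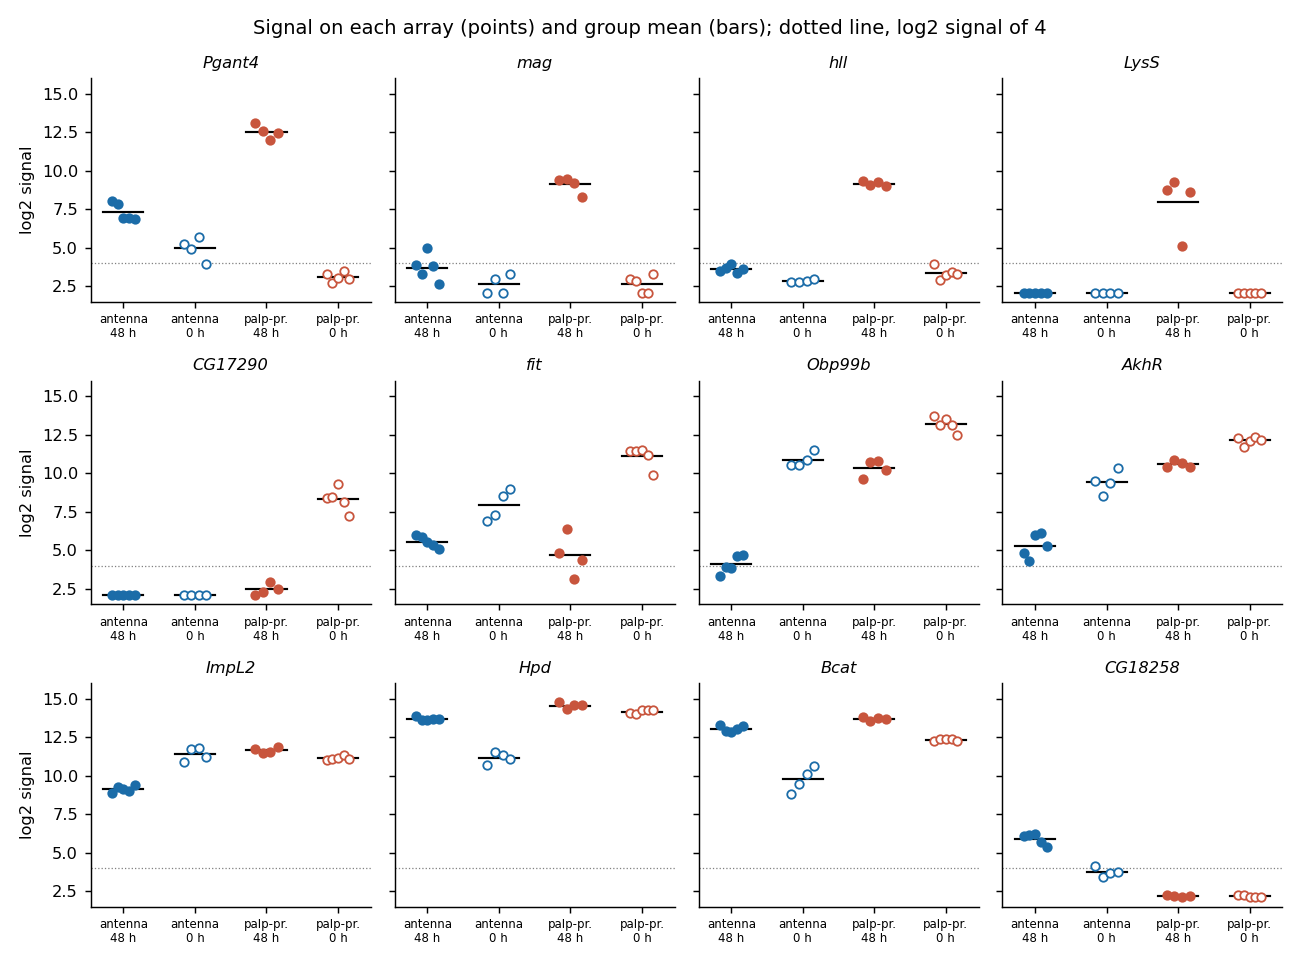
Log2 signal (vertical axis) on each of the 18 arrays for 12 genes, with antenna at 48 h and 0 h in blue and palp-proboscis at 48 h and 0 h in red; filled points are 48 h, open points 0 h, bars group means, and the dotted line a log2 signal of 4. For Pgant4 the palp-proboscis arrays sit between 12.01 and 13.08 at 48 h and between 2.72 and 3.47 at 0 h.

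Where antenna was at the floor, the rises in palp-proboscis included a lysozyme and an attacin gene. *LysS*, a lysozyme gene, was at the lowest value of the scale, 2.08, on all antenna arrays and on all palp-proboscis arrays at 0 h. At 48 h palp-proboscis read 8.78, 9.28, 5.13 and 8.64, a rise of at least 15.5-fold in which replicate 3 stood apart (difference -5.88 ± 0.78). *AttD*, an attacin gene of the antimicrobial peptides, read 6.47, 6.10, 6.17 and 4.37 in palp-proboscis at 48 h, against 2.08 to 2.40 at 0 h, and was at 2.08 on all antenna arrays (-3.52 ± 0.40). Its call was lost with head and body arrays in the fit (adjusted p 0.0851). *CG6280* (-3.75 ± 0.26) and *CG13215* (-3.96 ± 0.78) rose in the same way, *CG6280* at least 3.54-fold. *CG13215* was already above 4 on 3 of 5 palp-proboscis arrays at 0 h, with values up to 6.63.

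Other transcripts fell in palp-proboscis with antenna at the floor. *CG17290* was at 2.08 on all antenna arrays. In palp-proboscis it read 2.09, 2.30, 2.94 and 2.49 at 48 h, against 8.41, 8.45, 9.31, 8.11 and 7.24 at 0 h. That is a fall of at least 19.8-fold with the 48 h arrays counted at 4, and the difference was 5.85 ± 0.39 (adjusted p 6.18e-08). *CAH5*, a carbonic anhydrase gene, read 5.99 to 6.56 in palp-proboscis at 48 h, against 8.78 to 10.27 at 0 h (3.33 ± 0.32). The cathepsin L-like protease gene *CtsL3* (3.74 ± 0.36), *CG31664* (3.17 ± 0.32) and *Erasp* (3.13 ± 0.49) fell in palp-proboscis to below 4 on every array at 48 h.

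Transcripts counted at the floor in neither part also fell more in palp-proboscis, although some of them were dim in antenna. *fit* encodes a secreted satiety peptide made by the fat body. It read 5.96, 5.89, 5.56, 5.33 and 5.06 in antenna at 48 h, against 6.87, 7.28, 8.51 and 8.99 at 0 h, and 4.83, 6.37, 3.15 and 4.39 in palp-proboscis at 48 h, against 11.47, 11.45, 11.48, 11.16 and 9.92 at 0 h. It fell in both parts without overlap between times, by 2.35 in antenna and by 6.41 in palp-proboscis, and the difference was 4.06 ± 0.77 (adjusted p 0.00400). *CG7227* was above 4 on 1 of 9 antenna arrays only, with 2.08 to 2.10 at 48 h against 2.38 to 4.17 at 0 h, and fell at least 17.0-fold in palp-proboscis (4.26 ± 0.46). *CG10357* read 11.61 to 12.31 in antenna at 48 h, against 12.83 to 12.96 at 0 h, a fall of 0.83, while it fell at least 6.32-fold in palp-proboscis (3.59 ± 0.36).

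*CG3513* (3.47 ± 0.72), *CG30431* (2.86 ± 0.34) and *CG5418* (2.77 ± 0.58) were likewise above 4 on 1 of 9 antenna arrays only. Their differences rest mainly on the palp-proboscis change, although antenna changes largely below 4 enter them. *CG6034* (3.02 ± 0.76) was above 4 on 3 of 9 antenna arrays. The call of *CG6034* was lost without antenna 0 h replicate 2 (adjusted p 0.0519), or without palp-proboscis 48 h replicate 1 (0.0520), 2 (0.0514) or 4 (0.0541), and with pool and time as a block (0.0609). *MtnB*, a metallothionein gene, binds metal ions. It read 13.15 to 13.41 in antenna at 48 h, against 11.92 to 13.02 at 0 h, a change of 0.89 that was not called, and fell by 1.82 in palp-proboscis (2.71 ± 0.53, and adjusted p 0.0560 with head and body arrays in the fit). *Root* encodes Rootletin, which anchors the cilia of sensory neurons. It read 7.53 to 8.72 in antenna at 48 h, against 7.63 to 8.01 at 0 h, and 4.85 to 5.55 in palp-proboscis at 48 h, against 6.48 to 8.32 at 0 h (2.63 ± 0.42).

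Other transcripts fell more in antenna than in palp-proboscis. *Obp99b*, an odorant-binding protein gene, read 3.33, 3.92, 3.85, 4.65 and 4.66 in antenna at 48 h, against 10.55, 10.53, 10.89 and 11.48 at 0 h. Palp-proboscis read 9.64, 10.70, 10.80 and 10.22 at 48 h, against 13.73, 13.16, 13.50, 13.10 and 12.49 at 0 h. It fell by 6.78 in antenna and by 2.85 in palp-proboscis, with no overlap between times in either, and the difference was -3.93 ± 0.45 (adjusted p 3.42e-05). The antenna was below 4 on 3 of 5 arrays at 48 h, so the size of its fall is not well measured. *Obp56a* fell by 4.20 in antenna and by 2.28 in palp-proboscis (-1.92 ± 0.40, and adjusted p 0.0572 with pool and time as a block).

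*Npc2h* and *Npc2g* belong to the Niemann-Pick type C2 family of lipid-binding proteins. *Npc2h* read 5.08 to 7.38 in antenna at 48 h, against 9.62 to 11.88 at 0 h, and 10.71 to 11.67 in palp-proboscis at 48 h, against 12.83 to 13.10 at 0 h (-2.68 ± 0.65, and adjusted p 0.0580 with no filter on dim probe sets). *Npc2g* gave -2.66 ± 0.69, a call that was lost without any 1 of 9 of the 18 arrays (adjusted p up to 0.0684) and with pool and time as a block (0.0537). *apolpp* encodes the apolipophorin precursor of the fly's main lipid carrier. It fell by 1.87 in antenna and by 0.56 in palp-proboscis (-1.31 ± 0.25). *PGRP-SB1*, a peptidoglycan recognition protein gene, fell by 3.53 in antenna and by 1.51 in palp-proboscis (-2.03 ± 0.41). *Nplp2*, a neuropeptide-like precursor gene, fell by 3.20 in antenna and by 0.93 in palp-proboscis (-2.28 ± 0.46). In palp-proboscis at 0 h *apolpp* read 14.24 to 14.56 and *Nplp2* 14.05 to 14.20, near the top of the scale at 15.4. What part this had in their differences was not tested. The storage protein gene *Lsp2* fell by 8.56 in antenna and by 6.55 in palp-proboscis, and its difference of -2.01 ± 0.81 was not called (adjusted p 0.185, and 0.0361 without palp-proboscis 48 h replicate 3).

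The 4 fat body markers include *apolpp*, *Lsp2* and *fit*. Their mean level was lower at 48 h in both parts, as was that of the hemocyte genes. The fat body mean had a median over arrays of 7.80 in antenna at 48 h, against 11.0 at 0 h. In palp-proboscis it was 9.18 at 48 h, against 12.7 at 0 h, so this mean did not fall more in antenna. The markers in it fell unequally. In palp-proboscis *Lsp2* fell by 6.55 and *fit* by 6.41, but *apolpp* by 0.56 only. In antenna *Lsp2* fell by 8.56, *fit* by 2.35 and *apolpp* by 1.87. What part the fat body and hemocyte genes had in the differences above was not tested. Fewer fat body cells and less RNA per cell cannot be told apart in such bulk samples. Of 9 fat body genes tested, 1 difference was called higher in antenna (*fit*) and 2 lower (*Obp99b* and *apolpp*), where the shares over all 8163 named genes were 2.71% and 3.44%. The median difference over the 9 was -0.63, against -0.02 over all genes. Their median change was -1.87 in antenna and -0.56 in palp-proboscis, against 0.03 and 0.01 over all genes. The 3 calls thus pointed in different directions.

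The receptor of adipokinetic hormone, the hormone that releases stored fuel, gave results that depend on the probe set. The brighter probe set of *AkhR* read 4.79, 4.28, 5.97, 6.12 and 5.28 in antenna at 48 h, against 9.52, 8.54, 9.40 and 10.31 at 0 h, and 10.41 to 10.86 in palp-proboscis at 48 h, against 11.72 to 12.36 at 0 h. It fell in both parts, more in antenna (-2.61 ± 0.50, adjusted p 0.00415). A second probe set of *AkhR*, with antenna at the floor, was called in the other direction (1.72 ± 0.34, adjusted p 0.00540). The direction of the difference is therefore not settled for *AkhR*.

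With palp-proboscis at the floor, 18 probe sets were called, and these were mostly dim. *CG13563* read 2.40 to 3.67 in antenna at 48 h, against 5.51 to 7.00 at 0 h, a fall of at least 5.03-fold (-3.49 ± 0.37). *CG32591* fell at least 2.40-fold in antenna, with 3.11 to 3.27 at 48 h against 4.99 to 5.53 at 0 h (-1.95 ± 0.15). *CG18258*, of the lipase family, read 6.09, 6.16, 6.20, 5.73 and 5.37 in antenna at 48 h, against 4.13, 3.41, 3.70 and 3.75 at 0 h (2.17 ± 0.22). *CG13036* rose at least 1.82-fold in antenna (2.22 ± 0.28) and *CG33784* at least 1.90-fold (1.53 ± 0.33). *CG15734* rose in antenna (1.43 ± 0.31), but its call was lost with pool and time as a block (adjusted p 0.0547). For *blanks* (1.73 ± 0.48), *CG14397* (-1.65 ± 0.44) and *Cpr47Ea* (-1.20 ± 0.33) the call was lost without any 1 of 13 of the 18 arrays, with adjusted p up to 0.0799, 0.0785 and 0.0900. It was also lost with pool and time as a block for *blanks* (0.0501), *CG14397* (0.106) and *Cpr47Ea* (0.0732).

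Opposite changes, with a call in each part, were seen for 27 probe sets, and 10 genes were named by the size of their smaller change. The antenna rose and palp-proboscis fell for 4 of them: the carbonic anhydrase gene *CAH9* (2.59 ± 0.39), *CG32645* (2.10 ± 0.29), the zinc transporter gene *Zip89B* (1.85 ± 0.23) and *CG9717* (1.67 ± 0.17). *CAH9* read 7.49, 8.41, 8.32, 7.49 and 7.43 in antenna at 48 h, against 5.79, 6.86, 7.17 and 7.35 at 0 h. In palp-proboscis it read 8.04, 8.69, 8.39 and 8.54 at 48 h, against 9.94, 9.86, 10.09, 10.05 and 9.93 at 0 h, so that neither part overlapped between times. The antenna fell and palp-proboscis rose for the other 6, among them *Nep4* (-1.51 ± 0.18) and *Nep7* (-1.32 ± 0.28), genes of neprilysin peptidases that cut peptide signals. *Nep4* read 8.97 to 9.55 in antenna at 48 h, against 9.72 to 10.04 at 0 h, and 8.82 to 9.31 in palp-proboscis at 48 h, against 7.94 to 8.33 at 0 h. The rest were *CG42717* (-2.24 ± 0.51), *CG6749* (-1.71 ± 0.19), *CG5639* (-1.26 ± 0.27) and the cuticle protein gene *Cpr66D* (-2.05 ± 0.34). The arrays of *CG42717* and *CG5639* overlapped between times in both parts. The call of *CG5639* was lost with pool and time as a block (adjusted p 0.0602), and that of *Nep7* with head and body arrays in the fit (0.123).

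**Figure D3:**
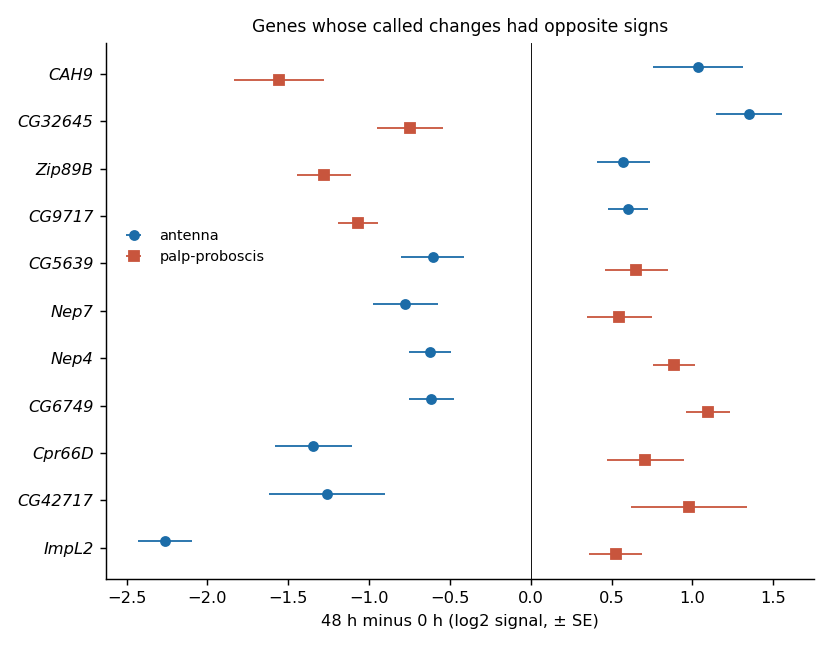
Change from 0 h to 48 h (horizontal axis, log2 signal, with standard error) in antenna (blue circles) and palp-proboscis (red squares) for 11 genes called in both parts with opposite signs. ImpL2 has the largest antennal fall of the 11, at -2.26, beside a change of 0.52 in palp-proboscis.

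The insulin pathway held another case of opposite changes, smaller in palp-proboscis than the 10 above. *ImpL2* encodes a secreted protein that binds insulin-like peptides and blocks their action. It read 8.87, 9.30, 9.13, 9.03 and 9.39 in antenna at 48 h, against 10.88, 11.73, 11.81 and 11.21 at 0 h. In palp-proboscis it read 11.73, 11.50, 11.57 and 11.89 at 48 h, against 11.04, 11.09, 11.16, 11.34 and 11.10 at 0 h. It fell by 2.26 in antenna, a 4.80-fold change, and rose by 0.52 in palp-proboscis, with no overlap between times in either part (difference -2.79 ± 0.23, adjusted p 1.54e-06). In the same flies, antenna lay 2.37 to 2.86 log2 units below palp-proboscis at 48 h, against 0.16 below to 0.64 above at 0 h.

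No difference was called for the insulin receptor gene *InR*, which rose in both parts. It read 10.06, 9.19, 8.84, 8.99 and 9.21 in antenna at 48 h, against 8.15, 7.28, 6.60 and 6.42 at 0 h, and 10.93, 9.53, 9.89 and 9.96 in palp-proboscis at 48 h, against 8.07, 7.37, 7.38, 7.48 and 7.83 at 0 h. The rise was 2.15 ± 0.34 in antenna and 2.45 ± 0.34 in palp-proboscis, and the difference of -0.31 ± 0.48 had a 95% interval from -1.33 to 0.72. *chico*, the insulin receptor substrate gene, rose in both, by 0.64 in antenna and by 1.31 in palp-proboscis (-0.68 ± 0.12). Of 13 insulin and Foxo genes tested, these 2 (*ImpL2* and *chico*) were called lower and none higher, against 3.44% and 2.71% of all named genes, and the median was -0.09. *foxo* itself gave -0.12 ± 0.32 and was not called.

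Of 19 autophagy genes, 6 rose in antenna and 12 in palp-proboscis, where 7.18% and 16.5% of all probe sets rose. The difference was called for *Atg18b* alone, where 6.15% of all named genes were called in either direction. *Atg18b* gave -1.29 ± 0.24, a call that was lost with head and body arrays in the fit (adjusted p 0.142). *Atg1*, the kinase that starts autophagy, gave -0.63 ± 0.36 and was not called. *bmm*, the triglyceride lipase gene Brummer, rose by 1.05 in antenna and by 1.71 in palp-proboscis. Its difference of -0.66 ± 0.20 was not called (adjusted p 0.0724), but it was called without antenna 48 h replicate 2 (0.0457) or antenna 0 h replicate 4 (0.0203), with the 24 h arrays in the fit (0.0259) and with head and body arrays in it (0.0100). *Pepck1*, which makes phosphoenolpyruvate for new glucose, read 11.94 to 12.66 in antenna at 48 h, against 12.72 to 13.42 at 0 h, and 14.25 to 14.56 in palp-proboscis at 48 h, against 14.10 to 14.51 at 0 h. It fell in antenna by 0.97, and the difference was -1.07 ± 0.22 (adjusted p 0.00655). The palp-proboscis values of *Pepck1* lay near the top of the scale, whose highest value was 15.4, and what part this had in the difference was not tested. *Hex-C*, a hexokinase gene, gave -1.58 ± 0.40, a call that was lost without any 1 of 5 of the 18 arrays (antenna 48 h replicates 1 and 5, antenna 0 h replicate 3, palp-proboscis 48 h replicates 2 and 4, adjusted p up to 0.0557) and with pool and time as a block (0.0880). *LpR1*, a lipophorin receptor gene, rose by 3.46 in antenna and by 2.79 in palp-proboscis, with a difference of 0.67 ± 0.28 (95% interval 0.09 to 1.25, adjusted p 0.192). A second probe set of *LpR1* gave -1.31 ± 0.52, also not called.

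De novo purine synthesis builds the purine ring in a chain of enzymes on phosphoribosyl pyrophosphate. Of 9 genes tested, 2 rose and 1 fell in antenna, where 7.18% of all probe sets rose and 8.15% fell, and 8 rose in palp-proboscis, where 16.5% of all rose. The difference was called lower in antenna for 4 of 9 and higher for none, against 3.44% and 2.71% over all named genes, and the median was -0.94, against -0.02. All 9 differences were negative, between -1.56 and -0.24. *Gart*, a trifunctional enzyme of the chain, read 8.52, 8.31, 8.49, 7.96 and 8.42 in antenna at 48 h, against 7.13, 7.10, 7.44 and 7.48 at 0 h. In palp-proboscis it read 11.98, 11.77, 11.55 and 11.77 at 48 h, against 9.59, 8.90, 9.56, 9.32 and 8.43 at 0 h (-1.56 ± 0.29, adjusted p 0.00321). *Gart* thus rose in both parts without overlap between times, by 1.05 in antenna and by 2.61 in palp-proboscis.

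*Pfas*, for another enzyme of the chain, also rose in both parts, by 1.63 in antenna and by 2.83 in palp-proboscis (-1.20 ± 0.25). *Adsl*, for adenylosuccinate lyase, changed by 0.10 in antenna (not called) and rose by 1.36 in palp-proboscis (-1.26 ± 0.18). *Prat2*, for the first enzyme of the chain, read 8.94 to 9.84 in antenna at 48 h, against 9.29 to 10.49 at 0 h, and 13.12 to 13.37 in palp-proboscis at 48 h, against 12.55 to 12.89 at 0 h. It fell in antenna by 0.81, with overlap between times, and its palp-proboscis change of 0.49 was not called (-1.30 ± 0.30).

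Of 17 genes of amino acid breakdown and one-carbon transfer, 2 were called higher in antenna and 4 lower, against 2.71% and 3.44% of all named genes, with a median of -0.19. The 2 higher ones break down tyrosine and branched-chain amino acids. *Hpd*, for 4-hydroxyphenylpyruvate dioxygenase, read 13.87, 13.62, 13.62, 13.66 and 13.71 in antenna at 48 h, against 10.68, 11.57, 11.32 and 11.08 at 0 h, and 14.79, 14.33, 14.56 and 14.56 in palp-proboscis at 48 h, against 14.06, 13.99, 14.25, 14.27 and 14.27 at 0 h. It rose 5.80-fold in antenna and 1.31-fold in palp-proboscis (2.14 ± 0.20, adjusted p 5.42e-06), and neither part overlapped between times. *Bcat*, the branched-chain aminotransferase gene, read 13.28, 12.92, 12.85, 13.02 and 13.20 in antenna at 48 h, against 8.79, 9.46, 10.13 and 10.65 at 0 h, and 13.53 to 13.82 in palp-proboscis at 48 h, against 12.23 to 12.40 at 0 h (1.92 ± 0.35, adjusted p 0.00321). Both genes were higher in palp-proboscis than in antenna at 0 h and remained so at 48 h by a smaller margin. The *Hpd* values of palp-proboscis, between 13.99 and 14.79, lay near the top of the scale at both times, and what part this had in the difference was not tested.

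The 4 lower ones act in the methionine and folate cycles or in aspartate metabolism. *Ahcy*, for adenosylhomocysteinase, changed by -0.07 in antenna (not called) and rose by 1.08 in palp-proboscis (-1.15 ± 0.23). *Nmdmc*, a folate dehydrogenase and cyclohydrolase gene, changed by 0.28 in antenna (not called) and rose by 1.38 in palp-proboscis (-1.09 ± 0.25). The folate enzyme gene *pug* (-0.78 ± 0.21) and the aspartate aminotransferase gene *Got1* (-0.35 ± 0.10) were named after their values were seen. Their calls were lost without any 1 of 10 and 15 of the 18 arrays, with adjusted p up to 0.0828 for *pug* and 0.0945 for *Got1*, and with pool and time as a block (0.0527 for *pug* and 0.0647 for *Got1*).

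**Figure D4:**
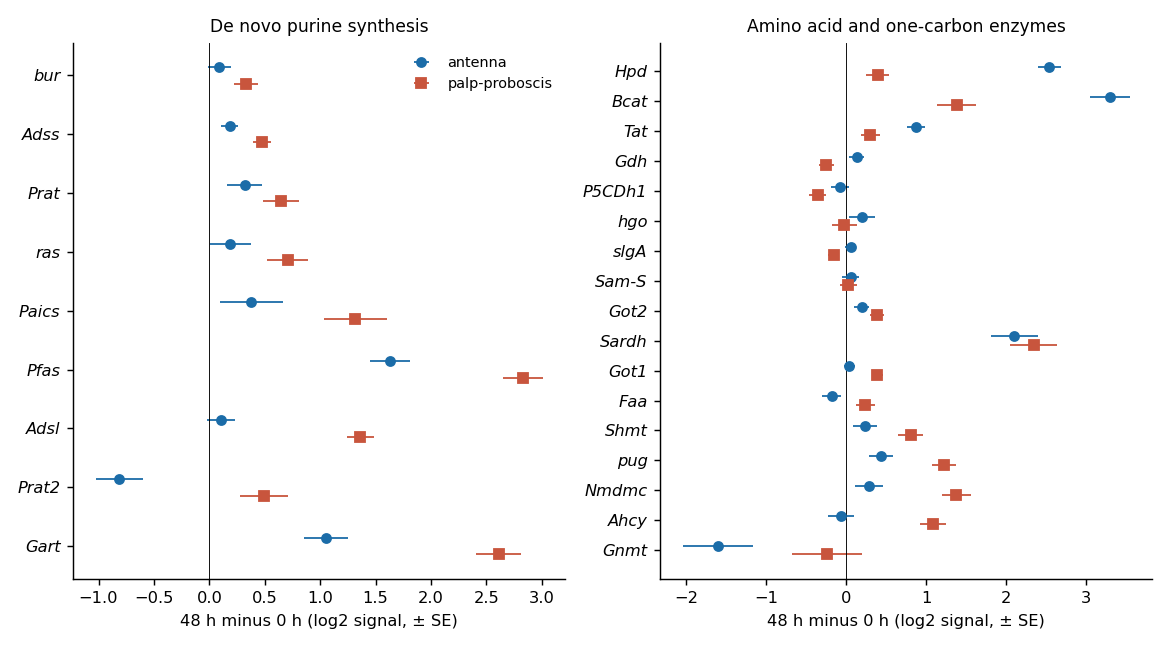
Change from 0 h to 48 h (horizontal axis, log2 signal, with standard error) in antenna (blue circles) and palp-proboscis (red squares) for 9 genes of de novo purine synthesis (left) and 17 genes of amino acid breakdown and one-carbon transfer (right), ordered by the difference. In all 9 purine genes the palp-proboscis change lies to the right of the antenna change, whereas Hpd and Bcat lie further right in antenna.

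Of 44 odorant receptor genes tested, 32 had palp-proboscis at the floor and 7 had antenna at the floor. For nearly all of them, the change of 1 part thus lay below the floor. The difference was called higher for 2 and lower for 1, with a median of -0.09, where 6.15% of all named genes were called in either direction. *Or59b*, a receptor of antennal neurons, fell in antenna, where it read 9.73, 9.62, 9.79, 9.85 and 9.76 at 48 h, against 10.37, 10.53, 10.54 and 10.14 at 0 h (-0.70 ± 0.17, adjusted p 0.0210). Palp-proboscis was at the floor for *Or59b*, and the call was lost with the 24 h arrays in the fit (0.117). *Or1a* and *Or45b*, known as receptors of larval olfactory neurons, were at the floor in antenna and fell in palp-proboscis. *Or1a* read 5.66 to 6.24 in palp-proboscis at 48 h, against 8.07 to 8.82 at 0 h (2.65 ± 0.23). *Or45b* gave 1.85 ± 0.47, lost without antenna 0 h replicate 1 (adjusted p 0.0503) or 4 (0.0560), or without palp-proboscis 48 h replicate 1 (0.0630) or 4 (0.0631).

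Neither *Orco* nor the receptor genes *Or42b*, *Or22a* and *Or42a* showed a called difference. *Orco*, the co-receptor of odorant receptors, read 12.15 to 12.67 in antenna at 48 h, against 12.36 to 12.82 at 0 h, and 9.12 to 9.62 in palp-proboscis at 48 h, against 9.08 to 9.44 at 0 h. Its difference was -0.35 ± 0.18 (95% interval -0.74 to 0.04). *Or42b*, a vinegar odour receptor of the antenna, gave 0.29 ± 0.22 (95% interval -0.18 to 0.76) and *Or22a* gave 0.00 ± 0.15 (95% interval -0.32 to 0.32), with palp-proboscis at the floor in both. *Or42a*, a palp receptor, rose by 1.72 in antenna from below 4 on every 0 h array, and its difference of 1.05 ± 0.61 was not called. None of the 7 palp receptors was called by limma, and 0 of 7 had an unadjusted p under 0.05. *sNPF-R*, the receptor of short neuropeptide F that tunes olfactory neurons of hungry flies, gave -0.25 ± 0.29 (95% interval -0.86 to 0.36). *sNPF* gave 0.05 ± 0.27 and *TkR86C*, a tachykinin receptor gene with palp-proboscis at the floor, gave -0.35 ± 0.33.

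Of 18 gustatory receptor genes, *Gr21a* alone was called, where 6.15% of all named genes were. *Gr21a* encodes a carbon dioxide receptor of the antenna, and it rose there to 8.90 to 9.27 at 48 h, against 8.35 to 8.86 at 0 h, with palp-proboscis at 2.08 on every array (0.58 ± 0.14). Its call was lost with pool and time as a block (adjusted p 0.0850) and without the 0 h arrays of pool 5 (0.0723). The sugar receptor *Gr64f* gave -0.03 ± 0.17, and the bitter receptor *Gr66a* 0.49 ± 0.31, called only without antenna 48 h replicate 6 (0.0316). Of 17 ionotropic receptor genes, *Ir56d*, of taste neurons, rose by 1.03 in palp-proboscis with antenna at the floor (-1.02 ± 0.28). That call was lost without any 1 of 15 of the 18 arrays (adjusted p up to 0.0743) and with pool and time as a block (0.103).

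Odorant-binding proteins, secreted into the fluid around sensory neurons, gave calls in both directions. Of 39 tested, 2 were called higher (*Obp56b* and *Obp56f*) and 3 lower (*Obp99b*, *Obp56a* and *Obp99c*), against 2.71% and 3.44% of all named genes, with a median of 0.22. Within parts, 9 fell in antenna and 14 in palp-proboscis, where 820 and 1513 of all 10058 probe sets fell. *Obp56b*, above 4 on 1 of 9 antenna arrays only, read 2.08 to 2.10 in antenna at 48 h, against 2.19 to 4.37 at 0 h, and 3.41 to 4.11 in palp-proboscis at 48 h, against 6.65 to 8.71 at 0 h (2.73 ± 0.56). *Obp99c* fell by 2.42 in antenna (-1.84 ± 0.51). Its palp-proboscis arrays read 14.32 to 14.59 at 0 h, near the top of the scale, and what part this had was not tested. Its call was lost without any 1 of 13 of the 18 arrays (adjusted p up to 0.0914). *Obp56f*, named after its value was seen, gave 1.63 ± 0.42 with antenna at the floor, lost without any 1 of 7 of the 18 arrays (adjusted p up to 0.0656) and with pool and time as a block (0.0864).

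Detoxifying enzymes were called in both directions. Of 69 cytochrome P450 genes, 6 were called higher and 8 lower, against 2.71% and 3.44% of all named genes, with a median of 0.02. A pair of neighbours in name went opposite ways in palp-proboscis: *Cyp4ac3* rose there to 10.33 to 11.88 at 48 h, against 6.90 to 7.92 at 0 h, while *Cyp4ac2* fell to 6.22 to 7.31 at 48 h, against 8.86 to 10.07 at 0 h. Neither change was called in antenna, and the differences were -3.04 ± 0.47 for *Cyp4ac3* and 1.96 ± 0.33 for *Cyp4ac2*. The call of *Cyp4ac2* was lost with head and body arrays in the fit (adjusted p 0.155). *Cyp309a1* (-2.22 ± 0.36) and *Cyp309a2* (-2.09 ± 0.47) fell in antenna to below 4 on every array at 48 h, and the call of *Cyp309a2* was lost with pool and time as a block (0.0864). Of 33 glutathione transferase genes, 4 were called higher and none lower, against 2.71% and 3.44% of all named genes. All 4 fell in palp-proboscis, a change that enters the difference by which they were called. Of all 33, 15 fell in palp-proboscis and 9 in antenna, where 1278 and 725 of all 8163 named genes fell. *GstE3* (0.53 ± 0.11) was lost with head and body arrays in the fit (0.0767), and *GstE6* (0.41 ± 0.09) with pool and time as a block (0.0591) and with head and body arrays (0.274). Antenna arrays read 13.70 to 13.99 for *GstE3* and 13.83 to 14.18 for *GstE6*, near the top of the scale. What part this had was not tested. *GstD4* (2.22 ± 0.57) and *GstE2* (0.54 ± 0.14) were lost without any 1 of 8 and 7 of the 18 arrays (adjusted p up to 0.0707 and 0.0668), and *GstE2* also with head and body arrays in the fit (0.226). *Snmp2*, a CD36-family gene of sensory support cells, rose in antenna to 9.28 to 9.52 at 48 h, against 8.35 to 8.62 at 0 h (0.87 ± 0.14, and adjusted p 0.352 with head and body arrays in the fit). A second probe set of *Snmp2* gave 1.19 ± 0.39 and was not called. The antennal esterase gene *Jhedup* gave 0.61 ± 0.17, lost without any 1 of 13 of the 18 arrays (adjusted p up to 0.0826), with pool and time as a block (0.0868) and with head and body arrays in the fit (0.753). The antenna arrays of *Jhedup* read 14.14 to 14.47, near the top of the scale, and what part this had was not tested.

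Of 22 immune effector genes, 3 were called higher and 2 lower (*AttD* and *PGRP-SB1*), against 2.71% and 3.44% of all named genes. The higher ones were *BomS5*, a bomanin peptide gene (1.45 ± 0.29), *Drsl5*, a drosomycin-like gene (0.51 ± 0.11, lost with pool and time as a block, adjusted p 0.0611, and with head and body arrays in the fit, 0.480), and *PGRP-LA* (0.43 ± 0.12, named after its value was seen, and lost without any 1 of 13 of the 18 arrays, adjusted p up to 0.0820). The antenna arrays of *Drsl5* read 14.62 to 14.82, near the top of the scale, and what part this had was not tested. *BomS5* rose in antenna to 11.42 to 11.88 at 48 h, against 10.28 to 11.60 at 0 h, with an overlap, and read 12.61 to 13.04 in palp-proboscis at 48 h, against 13.19 to 13.63 at 0 h. Of 28 cuticle protein genes, 2 were called higher, *Cpr50Cb* (2.68 ± 0.48) and *Cpr11A* (2.60 ± 0.41), both falling in palp-proboscis with antenna at the floor, and 2 lower (*Cpr66D* and *Cpr47Ea*). *Acp65Aa*, another cuticle protein gene, rose in palp-proboscis with antenna at the floor (-2.33 ± 0.49, and adjusted p 0.592 with head and body arrays in the fit). The maltase genes *Mal-B1* (-1.05 ± 0.20, and adjusted p 0.329 with head and body arrays in the fit) and *Mal-B2* (1.02 ± 0.22) differed in opposite directions. *Mal-B1* fell more in antenna and *Mal-B2* rose more in antenna, by 1.49 against 0.46 in palp-proboscis. The palp-proboscis arrays of *Mal-B2* read 13.88 to 14.05 at 48 h, near the top of the scale, and what part this had was not tested. *CCHa2*, a nutrient-responsive peptide hormone gene, fell by 1.39 in antenna and by 2.67 in palp-proboscis (1.27 ± 0.21).

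Of 36 ribosome biogenesis genes, 4 rose in antenna and 16 in palp-proboscis, against 7.18% and 16.5% of all probe sets. The difference was called lower for *ppan* (-0.75 ± 0.15, and adjusted p 0.112 with head and body arrays in the fit) and *RIOK2* (-0.68 ± 0.12), with a median of -0.33, where 6.15% of all named genes were called in either direction. Of 60 oxidative phosphorylation genes, *UQCR-11L* alone was called (2.06 ± 0.49), and its call was lost with pool and time as a block (adjusted p 0.0693) and without the 0 h arrays of pool 5 (0.0631). In 15 of 43 lists limma called no difference. They included 29 ribosomal protein genes and 10 clock genes, with 0 at an unadjusted p under 0.05, 26 proteasome genes with 2 and 69 mitochondrial ribosomal protein genes with 7. Further such lists were 13 lipid synthesis genes with 5 at an unadjusted p under 0.05, 19 muscle genes with 4, 17 neuronal genes with 2 and 14 hemocyte genes with 2. The share of all genes at an unadjusted p under 0.05 is not given here, so nothing is read from these counts. Of 9 Pgant genes, *Pgant4* and *Pgant2* were called, in opposite directions, and *Pgant2* (0.78 ± 0.19) was lost with pool and time as a block (0.0565) and with head and body arrays in the fit (0.339).

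At 24 h the difference from the same 0 h arrays was called for 223 of 10058 probe sets (2.22%), with 5 arrays of each part at that time. Among the 576 called at 48 h, 171 were also called at 24 h with the same sign, and 10 had the opposite sign at 24 h. Both counts share the 0 h arrays with the 48 h comparison. *Pgant4* averaged 4.96, 5.86 and 7.33 in antenna at 0, 24 and 48 h, and 3.11, 10.22 and 12.52 in palp-proboscis. *mag* was already high in palp-proboscis at 24 h, with means of 2.65, 9.33 and 9.11 at 0, 24 and 48 h. Its antenna means were 2.62, 5.18 and 3.71, the 24 h value with an SD of 1.52.

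*ImpL2* had already fallen in antenna at 24 h, with means of 11.41, 9.19 and 9.14 at 0, 24 and 48 h, against 11.15, 11.18 and 11.67 in palp-proboscis, and its 24 h difference was -2.25 ± 0.29. *Hpd* likewise gave 2.10 ± 0.18 at 24 h. *LysS* averaged 2.08, 3.77 and 7.96 in palp-proboscis at 0, 24 and 48 h, with an SD of 1.39 at 24 h and 6.23 on replicate 5. *AttD* averaged 2.25, 3.35 and 5.78, with an SD of 2.32 at 24 h, where replicate 3 read 7.48, above every 48 h array, and the others 2.08 to 2.57. Their 24 h differences of -1.69 ± 0.81 for *LysS* and -1.07 ± 0.92 for *AttD* were not called. *CAH5* averaged lower at 24 h than at 48 h in palp-proboscis, with means of 9.67, 4.85 and 6.34 at 0, 24 and 48 h and an SD of 1.66 at 24 h.

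**Figure D5:**
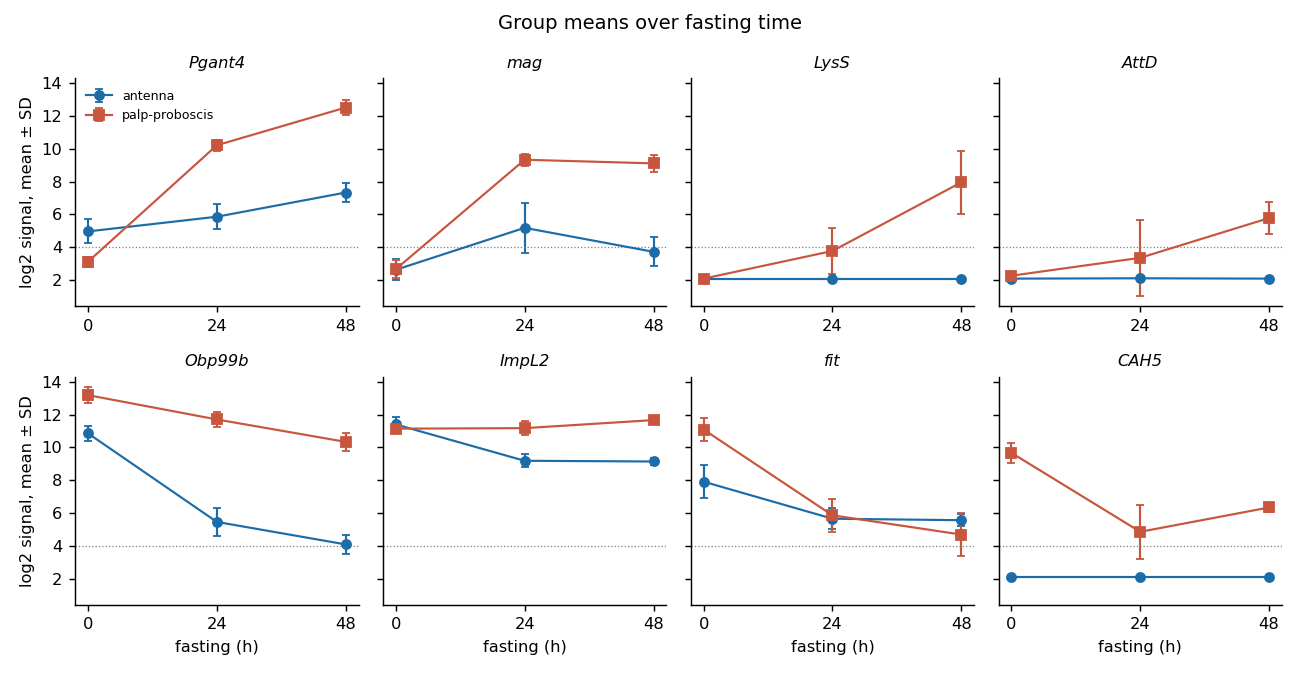
Mean log2 signal (vertical axis, bars SD) at 0, 24 and 48 h of fasting (horizontal axis) in antenna (blue circles) and palp-proboscis (red squares) for 8 genes; the dotted line is a log2 signal of 4, and groups hold 4 or 5 arrays. Pgant4 and mag are above 9 in palp-proboscis by 24 h, LysS and AttD average below 4 there until 48 h, and ImpL2 averages 9.19 in antenna against 11.18 in palp-proboscis at 24 h.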

How the data were processed

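Expression was measured on one-colour Affymetrix arrays. Per the labels' protocols, RNA was isolated with a Qiagen RNeasy kit, NuGEN Ovation amplification followed, and the product was biotin-labelled. The deposited values are log2 signals made with GCRMA, per the submitters' processing notes (version not given in the sources used here). They run from 2.08 to 15.4, with array distributions that match within 0.0330, so a change in total RNA cannot be read from them.

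Of 18952 probe sets, 183 were controls. Of the rest, 13647 had 1 gene symbol, 402 several and 4720 none, and only the first were named. Lists used the brightest probe set per gene. The moderated test was that of limma 3.58.1 (R 4.3.3), two-sided, on 4 group means, with Benjamini-Hochberg adjustment over all 10058 probe sets that passed the filter. The fit was tested on simulated data. Python 3.11.15, pandas 2.3.3, numpy 2.4.6 and matplotlib 3.10.9 made the tables and figures.

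Pool numbers in the labels name the same flies across parts. Deviations from group means correlated at 0.21 between parts of the same pool and time (8 pairs, from -0.06 to 0.46), against -0.05 between pools. The p-values measure the spread between arrays of a group, each from another pool, and the main fit did not use the pairing across parts. The number of arrays limits the precision.

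Genes were named by a rule: the 10 highest and 10 lowest differences with neither part at the floor, up to 5 each with 1 part there, 10 opposite changes, up to 4 called members per list, and a fixed set of feeding genes. The members and the 43 lists were chosen with earlier results of these data known. Alternatives changed the arrays in the fit, the filter, the floor, the scaling, the blocks, weights and covariates, and left out each array.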

Additional observations from a re-analysis of the deposited data

Results flagged for a closer look

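The count of 576 probe sets whose change differed between antenna and palp-proboscis is itself a difference between groups in the same contrast, tested by the difference of the changes. So are the 10 named genes with opposite called changes, whose differences were 2.59 for *CAH9*, 2.10 for *CG32645*, 1.85 for *Zip89B*, 1.67 for *CG9717*, -1.26 for *CG5639*, -1.32 for *Nep7*, -1.51 for *Nep4*, -1.71 for *CG6749*, -2.05 for *Cpr66D* and -2.24 for *CG42717*.

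Single arrays stood apart from the rest of their group for 22 of the 368 groups of 4 or 5 arrays examined over the named genes, where chance alone gives about 1 in 20. In antenna at 48 h the high arrays were *CG6034* on replicate 6 (5.23, others 2.21 to 2.78) and *Ag5r* on replicate 5 (5.65, others 2.10 to 2.55). In antenna at 0 h *Ag5r* was high on replicate 3 (5.08, others 2.16 to 2.53), *Cpr47Ea* low on replicate 3 (4.57, others 4.90 to 4.96) and *Drsl5* low on replicate 1 (14.62, others 14.79 to 14.82). In palp-proboscis at 48 h replicate 1 was high for *CG8679* (9.39, others 8.64 to 8.73), *Pepck1* (14.56, others 14.25 to 14.27), *Adsl* (11.52, others 11.38 to 11.40) and *bmm* (14.06, others 13.57 to 13.62), and low for *Npc2g* (10.25, others 11.33 to 11.43). Replicate 2 of that group was high for *Mdr50* (8.40, others 7.78 to 7.86) and *UQCR-11L* (4.64, others 3.67 to 3.77), and low for *CG13215* (7.76, others 8.95 to 9.10) and *Gr66a* (7.60, others 7.85 to 7.88). Replicate 3 was low for *LysS* (5.13, others 8.64 to 9.28) and replicate 4 for *GstE2* (8.75, others 8.86 to 8.87). In palp-proboscis at 0 h replicate 5 was low for *fit* (9.92, others 11.16 to 11.48), *Obp56a* (12.12, others 13.53 to 13.75), *Cyp309a1* (7.82, others 8.80 to 9.11) and *PGRP-SB1* (13.04, others 13.76 to 13.93). Replicate 1 was low for *CG34136* (8.03, others 8.55 to 8.75), and replicate 3 high for *Mal-B1* (11.08, others 10.75 to 10.83).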

How the results depend on the processing

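Among the named genes and counts recomputed, no called difference changed sign under the alternatives tried. Of 101 named genes called, 64 kept their call under every alternative, and 3 of 15 not called passed under at least 1. The count of 576 was 676 with the 24 h arrays in the fit, 562 with all 56 arrays, 497 with no filter, 438 with the filter set within each part, 625 with a mean-variance trend, 591 with the gut level and 805 with the 3′ minus 5′ control signal as a covariate, and 486 without the 0 h arrays of pool 5. Those among the 576 were 515, 407, 439, 438, 551, 550, 574 and 427, in the same order. With the pool as a fixed replicate block the count was 704, as a random block 715 and with pool and time as a fixed block 518. Of these, 524, 576 and 402 were among the 576. Array weights gave 1140 (557 higher and 583 lower), with 37 at the palp-proboscis floor. Leaving out 1 array gave 448 to 621 calls, with 11 to 27 at the palp-proboscis floor against 18 (11 without palp-proboscis 48 h replicate 4) and 80 to 97 at the antenna floor against 90. Calls at the antenna floor were 47 with a floor of 3. With all 56 arrays, 31 were at the palp-proboscis floor. The filter within each part leaves 0 at the antenna floor and 0 at the palp-proboscis floor by construction. The causes of the other shifts were not tested. Differences below the floor or near the top of the scale may not be readable, and with 4 or 5 arrays a group a missed call does not show equal changes.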
